A study of Homo sapiens with 6 samples.

Results

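The genes described here are the 10 subunits of the AP-1 transcription factor complex FOS, FOSB, FOSL1, FOSL2, JUN, JUNB, JUND, BATF3, ATF2 and MAFF. They were found by symbol among the 57905 gene identifiers of the deposited table, and each matched a single identifier. The samples were A549 cells, a human lung adenocarcinoma line, in 2 groups of 3 libraries. One group received miR-19a and the other the control miR-NC, each at 25 nM with Lipofectamine 3000, and cells were harvested at 24 h. The parental line and the reagent were shared by both groups, and untransfected cells were not analysed here. Mature miR-19a is not measured by poly(A) libraries, so its level was not checked. The labels do not say whether the libraries of a group came from separate cultures, and p-values therefore measure the spread between these libraries, which may be technical.

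AP-1 is a dimer of basic leucine zipper proteins. JUN proteins pair with each other or with FOS proteins, FOS proteins need a JUN partner, and the dimers bind the sequence TGACTCA in promoters and enhancers. FOS, FOSB, JUN and JUNB are immediate early genes whose messages appear within minutes of a stimulus and decay fast, helped by AU-rich elements in their 3′ UTRs. FOSL1 (FRA-1) and FOSL2 (FRA-2) are longer lived and lack the strong activation domain of FOS. FOSL1 is best known in epithelial cancers for its part in migration and invasion.

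miR-19a-3p is the guide strand that pairs with target messages through its seed. It is printed first so that the target sites can be read against it, with the seed (bases 2 to 8) in capitals. The mature sequence is RefSeq's on GRCh38.p14, chr13:91350939-91350961, plus strand.

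hsa-miR-19a-3p: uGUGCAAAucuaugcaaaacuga

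A message pairs with bases 2 to 8 through TTTGCAC (a 7mer-m8 site), and TTTGCACA is the stronger 8mer. TTGCACA is the 7mer-A1 and TTGCAC the 6mer. Among the 10 AP-1 genes, 4 carried a site of 7 or 8 nt in the 3′ UTR of the GENCODE v29 transcript with the longest coding sequence. Each is shown in a window of 30 nt of the message, 5′ to 3′, with the site in capitals, because FOSL1 and ATF2 fell while FOSL2 and JUND were not called.

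FOSL1: cctctctagcacaaTTTGCACtaaatcaga

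FOSL2: acaagcctacagtaTTTGCACtaaagaaag

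JUND: gcggccgccccgtgTTGCACAaacccgcgc

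ATF2: tttttgccttttatTTTGCACAttatgcaa

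On GRCh38 these windows are chr11:65892653-65892682 for FOSL1 (minus strand), chr2:28417143-28417172 for FOSL2 (plus strand), chr19:18280154-18280183 for JUND (minus strand) and chr2:175074082-175074111 for ATF2 (minus strand). Each site lies within a single exon. The 7mer-m8 sites of FOSL1 and FOSL2 share a run of 12 nt, aTTTGCACtaaa. A site of 7 or 8 nt was present in the 3′ UTR of 18.6% of the 10472 tested genes with an annotated 3′ UTR.

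The libraries held 15699037 to 17957932 counts. The chi-square per gene between libraries, near 1 for sampling noise alone, was 1.57 to 3.73 within groups and 22.6 to 25.4 across them, so no pair agreed within sampling noise. Of 8 epithelial and A549 markers 7 passed the expression minimum, with a summed level of 5119 to 5169 FPKM in miR-NC and 5059 to 5121 in miR-19a, while EPCAM was low at a mean of 0.683 FPKM. Of these 7, 3 rose and 3 fell, among them KRT18 at a log2 fold change of 0.38 and KRT7 at -0.28. By the edgeR test described below, 85.7% of these 7 were called, against 48.4% of all tested genes. The 7 fibroblast markers summed to 1.73 to 2.02 FPKM in miR-NC and 2.99 to 3.69 in miR-19a. Nearly all of it came from COL1A1, at 0.903 ± 0.10 FPKM in miR-NC and 2.57 ± 0.177 in miR-19a (SD, n = 3), and THY1, which was lower in miR-19a at 0.613 ± 0.10 FPKM against 0.89 ± 0.0557. COL1A1 passed the minimum only through its miR-19a libraries, THY1 was not tested, and the other 5 had 10 counts or fewer in each library. The 4 leukocyte markers summed to 0.28 FPKM or less and the 2 matched endothelial markers to 0.05 or less, with CD3E at 0 in all libraries. The part of the fibroblast markers in the AP-1 results was not tested.

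In the miR-19a libraries the transcripts of FOS, JUN, JUNB and BATF3 rose and those of FOSL1, ATF2 and MAFF fell. FOSL2 and JUND did not pass the test. FOSL1 had the largest fall, by 43.2%, and FOS the largest rise among the tested members, by 88.3% from a low level. FOS passed the expression minimum only through its miR-19a libraries, and JUNB had the largest rise of the other tested members, by 64.2%. FOSB lay under the minimum of a mean FPKM of 1 over the 6 libraries and was not tested in the same fit. The test was edgeR's quasi-likelihood test on counts, two-sided, with Benjamini-Hochberg adjustment over all 12452 tested genes and a threshold of 0.05.

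Of the 9 tested members 7 were called, 4 higher and 3 lower. Among all tested genes 48.4% were called, 24.9% higher and 23.5% lower, so a call was common in this comparison. The groups did not overlap in CPM, counts scaled to a common library total with edgeR's TMM factors, for 7 of the 9, against 54% of all tested genes. The median absolute log2 fold change was 0.39 over the 9 and 0.18 over all tested genes. FOS reached the minimum only through its miR-19a libraries, since its mean was 0.917 FPKM in miR-NC and 1.71 in miR-19a. Without FOS, 3 of the 8 tested members were called higher and 3 lower, with a median log2 fold change of 0.02. These counts over the members that passed are therefore a description of them.

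**Figure D1:**
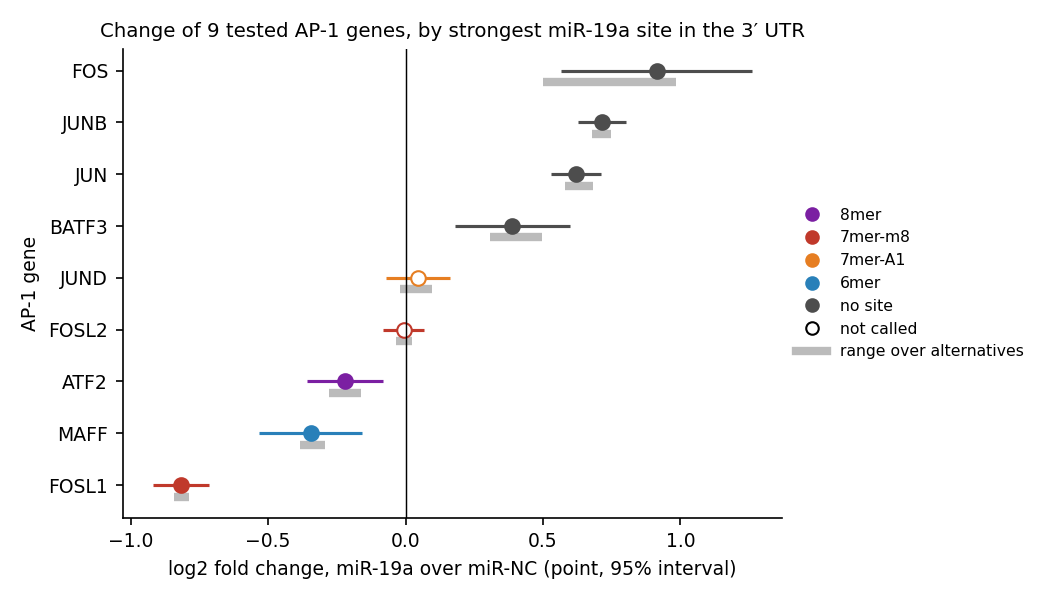
Log2 fold change of the 9 tested AP-1 genes (horizontal axis, miR-19a over miR-NC) with its 95% interval, coloured by the strongest miR-19a site in the 3′ UTR; filled points were called and open points were not, and grey bars span the alternative analyses. FOS, JUNB, JUN and BATF3, at 0.91, 0.72, 0.62 and 0.39, carried no site and lie to the right of 0, and FOSL1 lies lowest at -0.82. FOSL2, with the same 7mer-m8 as FOSL1, lies at -0.01 and JUND, with a 7mer-A1, at 0.04. MAFF (6mer) lies at -0.35 and ATF2 (8mer) at -0.22.

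Levels are compared between genes only in FPKM, the authors' value scaled by gene length and library total. In miR-NC, JUNB was the most abundant AP-1 message at 59.6 ± 1.35 FPKM (mean ± SD, n = 3). FOSL2 followed at 51.1 ± 2.04 and FOSL1 at 48.5 ± 2.02, and the libraries of these neighbours overlapped. JUN stood at 30.3 ± 2.35 and JUND at 27.3 ± 0.426. ATF2 (5.84 ± 0.465), MAFF (5.51 ± 0.344) and BATF3 (4.13 ± 0.355) formed a lower tier, in which ATF2 and MAFF overlapped. FOS (0.917 ± 0.0850) and FOSB (0.173 ± 0.0252) were lowest.

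The order differed in miR-19a. JUNB again stood first, at 96.7 ± 4.73 FPKM, and FOSL2 second at 50.3 ± 0.619. JUN, at 46.1 ± 0.702, now lay next to FOSL2, without overlap. FOSL1, at 27.2 ± 0.832, had moved below JUN and overlapped JUND at 27.8 ± 2.27. BATF3 (5.37 ± 0.734) overlapped ATF2 (4.96 ± 0.167), and MAFF (4.29 ± 0.0902) lay below both in every library. FOS stood at 1.71 ± 0.0902 and FOSB at 0.29 ± 0.0872. The FPKM of a library depends on the summed counts of all genes, so these levels are relative to the rest of the transcriptome, and in bulk RNA fewer cells with a message cannot be told apart from less of it per cell.

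**Figure D2:**
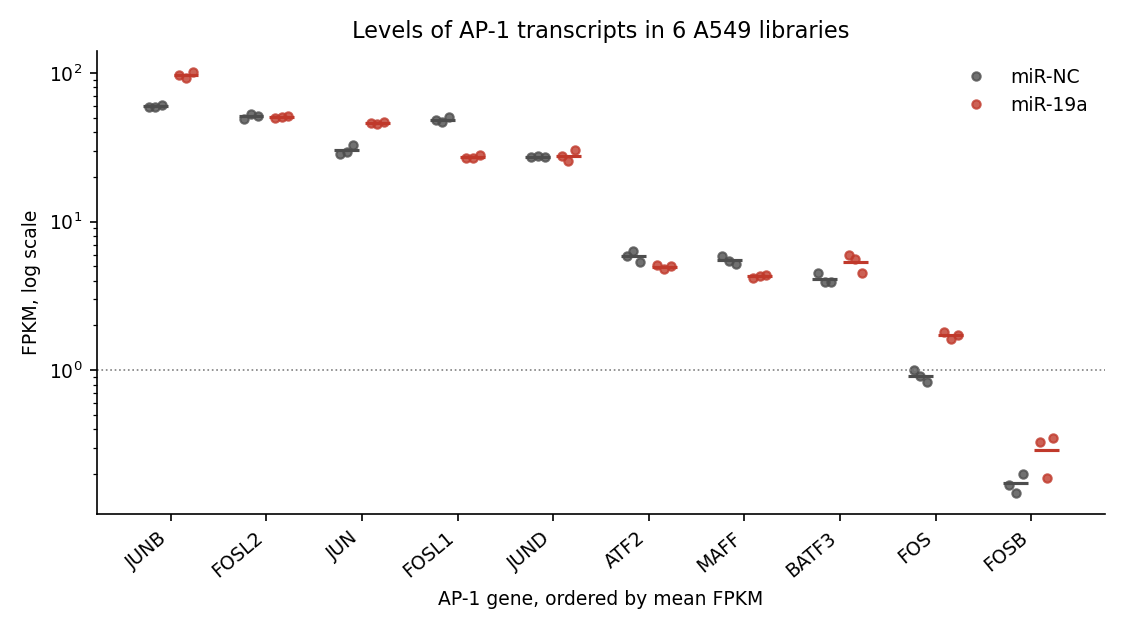
FPKM of the 10 AP-1 genes in each library (vertical axis, log scale; points are libraries, short lines are group means, the dotted line is the minimum of 1 FPKM on the mean). JUNB, FOSL2, JUN, FOSL1 and JUND lie between 25.65 and 101.65 FPKM, and FOSB stays below 0.36 in every library.

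Among the FOS proteins, FOSL1 is the member that fell. FOSL1 (ENSG00000175592, GRCh38 chromosome 11, 65892049 to 65900573, minus strand, in GENCODE v29 by gene identifier, as for all genes here) had 90.8, 87.8 and 94.6 CPM in miR-NC replicates 1 to 3 and 51.0, 50.5 and 53.5 CPM in miR-19a replicates 1 to 3. Every miR-19a library lay below every miR-NC library, and the spread within a group was small beside the gap. The log2 fold change was -0.82 (SE 0.052, adjusted p = 4.5e-22). Only 4.34% of tested genes had an absolute log2 fold change as large. The 7mer-m8 site sits at nucleotides 218 to 224 of a 3′ UTR of 666 nt. Of the other 770 tested genes with a 7mer-m8 as their strongest site, 24 (3.12%) had a log2 fold change as low as that of FOSL1.

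FOSL2 carries the same 7mer-m8 and did not pass the test. FOSL2 (ENSG00000075426, chromosome 2, 28392448 to 28417312, plus strand) had 349.3, 379.9 and 362.5 CPM in miR-NC replicates 1 to 3 and 358.9, 360.5 and 367.3 CPM in miR-19a. The groups overlapped throughout. Its log2 fold change was -0.01 (SE 0.038, adjusted p = 0.905), with a 95% interval of -0.08 to 0.07. With 5749 to 6558 counts per library it was the most deeply counted member, and its interval excludes a change as large as that of FOSL1, whose own interval was -0.92 to -0.71. In FOSL2 the site sits at nucleotides 4709 to 4715 of a 3′ UTR of 4864 nt, 149 nt from its annotated end, whereas in FOSL1 442 nt follow the site. Among the other 770 tested genes with a 7mer-m8 as their strongest site, 58.6% had a log2 fold change as low as that of FOSL2, and the median was -0.06. The ratio of FOSL1 to FOSL2 FPKM was 0.986, 0.877 and 0.989 in the miR-NC libraries and 0.539, 0.531 and 0.552 in the miR-19a libraries.

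FOS itself was scarce but higher. FOS (ENSG00000170345, chromosome 14, 75278774 to 75282230, plus strand) had 54, 48 and 42 counts in miR-NC replicates 1 to 3 and 95, 90 and 100 in miR-19a replicates 1 to 3. In CPM this was 3.23, 2.97 and 2.65 against 5.86, 5.26 and 5.60, with all miR-19a libraries higher. Its log2 fold change of 0.91 had the widest error of the tested members (SE 0.17, adjusted p = 9.9e-06), with a 95% interval of 0.57 to 1.26. On log2(FPKM + 1) in limma the change was 0.50, since the pseudocount is near the gene's own level. FOS has no miR-19a site in its 3′ UTR.

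FOSB, the closest relative of FOS, had few counts. FOSB (ENSG00000125740, chromosome 19, 45467995 to 45475179, plus strand) had 16, 13 and 17 counts in miR-NC and 30, 18 and 35 in miR-19a. In CPM the second miR-19a library (1.05) fell inside the miR-NC range of 0.805 to 1.07, so the groups overlapped. With edgeR's filterByExpr as the gene filter the log2 fold change was 0.78 (SE 0.32, adjusted p = 0.0403), and with no filter on level 0.78 (adjusted p = 0.0543). The call for FOSB thus differed between these filters.

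The make-up of the FOS family messages is described here as shares of their summed FPKM. FOSL1 held 48.2 ± 1.69% of the summed FOS-family FPKM in miR-NC and 34.2 ± 0.406% in miR-19a (SD, n = 3). FOSL2 went from 50.7 ± 1.71% to 63.3 ± 0.515% while its own level did not pass the test. FOS made up 0.911 ± 0.104% and 2.15 ± 0.115%, and FOSB under 1% in each library. The family sum was 98.6 to 102.83 FPKM in the miR-NC libraries and 78.58 to 81.28 in the miR-19a libraries. These shares are descriptions of chosen genes and were not tested. With the length of 1 GENCODE transcript per gene in place of the authors' gene length, FOSL1 and FOSL2 had near equal shares in miR-NC, 49.4% and 49.1%, so which of them led there depends on the length used. In miR-19a they had 35.2% and 61.4% on that scale.

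**Figure D3:**
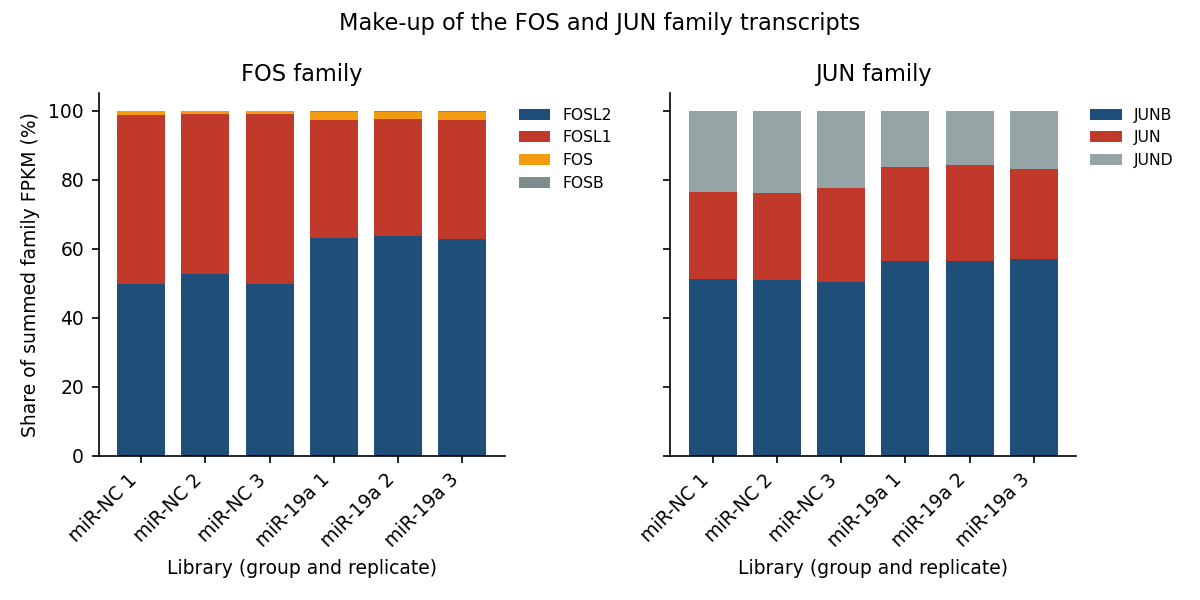
Share of the summed FPKM of the FOS family (left) and of the JUN family (right) taken by each member, in percent, for each of the 6 libraries. FOSL1 takes 46.2 to 49.2% in the miR-NC libraries and 33.9 to 34.7% in the miR-19a libraries, and JUND takes 22.3 to 23.9% and 15.7 to 16.9%.

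Of the JUN proteins, the obligate partners of FOS proteins, JUNB and JUN rose and JUND did not pass. JUNB (ENSG00000171223, chromosome 19, 12791496 to 12793315, plus strand) is a weaker activator than JUN and can restrain it. It had 105.8, 106.9 and 109.8 CPM in miR-NC replicates 1 to 3 and 175.6, 168.2 and 185.6 in miR-19a replicates 1 to 3. The groups were far apart, and JUNB rose by 0.72 on the log2 scale, or 64.2% (SE 0.043, adjusted p = 5.0e-23). In GENCODE v29, 259 of the 1820 nt of JUNB's exons overlap exons of HOOK2 on the other strand. No source used here says whether strand was used in counting, so reads from that stretch cannot be told apart. HOOK2 had 191 to 248 counts per library against 1726 to 3313 for JUNB, and was not called (-0.13 on the log2 scale, adjusted p = 0.266).

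JUN (ENSG00000177606, chromosome 1, 58780788 to 58784327, minus strand), the prototype AP-1 activator, had 94.5, 97.1 and 108.4 CPM in miR-NC replicates 1 to 3 and 154.9, 150.9 and 155.5 in miR-19a. The miR-19a libraries all lay above the miR-NC libraries. The log2 fold change was 0.62 (SE 0.045, adjusted p = 3.4e-19), or 53.8% more. The FPKM ratio of JUNB to JUN was 1.85 to 2.05 in miR-NC and 2.04 to 2.18 in miR-19a, with overlap, whereas that of JUNB to JUND was 2.12 to 2.26 and 3.37 to 3.60. Neither has a miR-19a site in the 3′ UTR.

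JUND (ENSG00000130522, chromosome 19, 18279760 to 18281622, minus strand) is the JUN protein that quiescent cells keep. It had 50.2, 51.8 and 50.1 CPM in miR-NC and 51.8, 48.2 and 56.7 in miR-19a, and the groups overlapped. Its log2 fold change was 0.04 (SE 0.058, adjusted p = 0.564), with a 95% interval of -0.07 to 0.16 that leaves out the values of JUN and JUNB. Its 7mer-A1 site lies at nucleotides 272 to 278 of a 3′ UTR of 681 nt. Of the other 544 tested genes with that class as their strongest, 62.5% had a log2 fold change at or below that of JUND. JUND's share of the summed JUN-family FPKM was 23.3 ± 0.846% in miR-NC and 16.3 ± 0.601% in miR-19a, and JUNB's was 50.9 ± 0.437% and 56.7 ± 0.255%. The family sum was 114.19 to 121.12 FPKM in miR-NC and 163.14 to 178.37 in miR-19a.

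The other 3 subunits are partners from related families, all at lower levels. BATF3, a short protein of leucine zipper and basic region that dimerizes with JUN proteins, is best known from dendritic cells. BATF3 (ENSG00000123685, chromosome 1, 212686418 to 212699985, minus strand) had 12.2, 10.7 and 10.5 CPM in miR-NC and 16.2, 15.3 and 12.4 in miR-19a. The third miR-19a library was only just above the first miR-NC library, and in FPKM these libraries tie at 4.54. The log2 fold change was 0.39 (SE 0.10, adjusted p = 0.0014).

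ATF2, which binds cAMP response elements and is activated by JNK and p38 kinases, carries the only 8mer site among the AP-1 genes. ATF2 (ENSG00000115966, chromosome 2, 175072250 to 175168382, minus strand) had 33.5, 36.2 and 30.6 CPM in miR-NC and 29.6, 27.6 and 28.8 in miR-19a. The lowest miR-NC library was close to the highest miR-19a library, and the log2 fold change was -0.22 (SE 0.069, adjusted p = 0.0062). Without miR-NC replicate 2, its highest library, it was -0.16 and no longer passed (adjusted p = 0.0739), which leaves 6 called members. The site lies at nucleotides 512 to 519 of a 3′ UTR of 2359 nt, and 4 of 10 annotated coding transcripts include a site of 7 nt or more. An antisense gene that overlaps 246 of its 5751 exon nt, AC096649.1, had 0 to 3 counts. Among the other 632 tested genes with an 8mer the median log2 fold change was -0.15, and 42.7% were as low as ATF2.

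MAFF is a small MAF protein without an activation domain, which represses as a homodimer and pairs with CNC factors such as NFE2L2. MAFF (ENSG00000185022, chromosome 22, 38200767 to 38216511, plus strand) had 17.4, 16.1 and 15.4 CPM in miR-NC and 12.6, 12.9 and 13.1 in miR-19a, without overlap. The log2 fold change was -0.35 (SE 0.094, adjusted p = 0.0015). Its 3′ UTR of 1633 nt holds 2 sites of the 6mer class and none of 7 nt. Of the other small MAF genes, MAFK rose from 121.0 ± 7.13 to 252.3 ± 6.86 CPM (log2 fold change 1.06, SE 0.042, adjusted p = 1.4e-32). MAFG fell by 0.13 on the log2 scale (SE 0.042, adjusted p = 0.0081).

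AU-rich pentamers, the core of the decay elements known from FOS and other early messages, were counted in the same 3′ UTRs. ATTTA occurred in all 10 AP-1 genes, against 68.1% of tested genes, and TATTTAT in 7 of 10, against 31.7%. FOS held 5 ATTTA in 806 nt, a density of 6.20 per 1000 nt, JUNB 2 in 500 nt (4.0) and ATF2 8 in 2359 nt (3.39). The density over all tested 3′ UTRs was 2.27 per 1000 nt, and FOSL1 (1.5), JUND (1.47), FOSB (1.39) and FOSL2 (1.85) lay below it. BATF3 (2.68), MAFF (2.45) and JUN (2.33) lay above it. ATF2 and MAFF, which fell, and FOS, JUNB, JUN and BATF3, which rose, were thus all above that density. A match describes these letters, and decay was not measured.

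**Figure D4:**
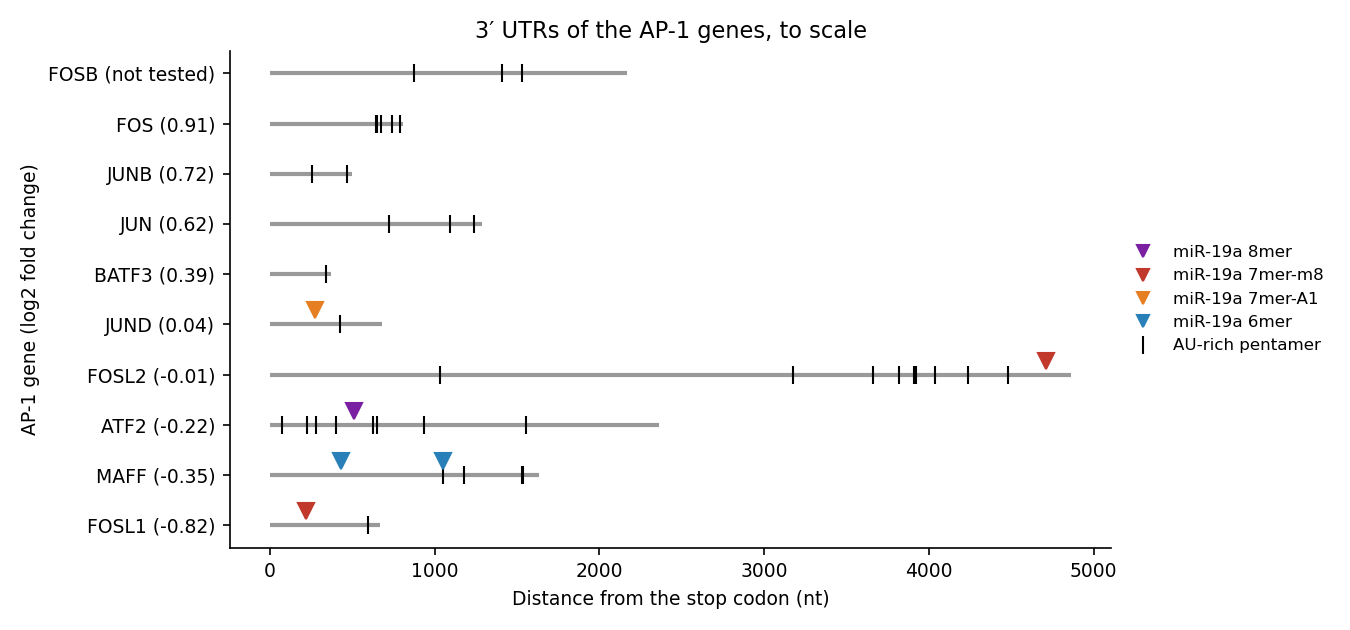
The 3′ UTRs of the 10 AP-1 genes drawn to scale as lines (horizontal axis, nt from the stop codon), ordered by log2 fold change with the value beside each name; triangles are miR-19a sites by class and vertical ticks are AU-rich pentamers. FOSL1 has its site at nucleotide 218 of 666 and FOSL2 at 4709 of 4864.

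Promoter windows of 250 nt before to 50 nt after the start, from RefSeq on GRCh38.p14, covered 7 of the 10 genes, all but FOSL1, BATF3 and ATF2. They were searched on both strands for 5 motifs, because JUN and other AP-1 genes are known to be regulated by AP-1 and ATF factors. The motifs were TGACTCA, TGACGTCA, TGACATCA, TTACCTCA and the CArG box. Both TGACATCA and TTACCTCA were taken from what is known of the JUN promoter, and JUN had a match to each, at -67 and -186 from the start. TGACATCA occurs in 2.61% and TTACCTCA in 0.715% of 35116 promoter windows. The stretch of JUN with both matches in capitals is chr1:58784098-58784247 on the minus strand. It is shown because both elements are known to bind dimers of JUN and ATF2. JUN rose while ATF2 fell, but binding to these elements was not measured and a link to either change was not tested.

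JUN: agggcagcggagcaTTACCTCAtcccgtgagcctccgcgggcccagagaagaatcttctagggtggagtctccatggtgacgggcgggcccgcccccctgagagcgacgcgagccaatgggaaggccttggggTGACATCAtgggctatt

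TGACGTCA, the cAMP response element, was found in JUND and MAFF and in 1.85% of all windows. These matches are shown for comparison with JUN, at chr19:18281799-18281838 on the minus strand for JUND and chr22:38201924-38201963 on the plus strand for MAFF.

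JUND: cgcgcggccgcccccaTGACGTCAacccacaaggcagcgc

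MAFF: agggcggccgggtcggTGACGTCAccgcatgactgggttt

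FOSL2 held TGACTCA 4 nt after its start, a motif of 4.95% of windows. No window of FOS, FOSB or JUNB held any of the 5 motifs, which says only that these letters are not in these windows. JUN, which rose, MAFF, which fell, and JUND and FOSL2, which were not called, each had a match. The motifs matched were not the same, those of JUN came from its own promoter, and FOSL1, BATF3 and ATF2 had no window. Whether a match goes with a direction was therefore not tested.

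Among other bZIP proteins that partner or resemble AP-1, 13 of 22 listed genes were tested, 6 rose and 2 fell (61.5% called, against 48.4% of all tested genes), with a median log2 fold change of 0.10 against -0.0045 over all tested genes. ATF3, a stress-induced partner of JUN, rose from 12.9 ± 0.807 to 27.0 ± 1.84 CPM (log2 fold change 1.06, SE 0.085, adjusted p = 2.2e-17). JDP2, a repressor that dimerizes with JUN, fell by 0.42 on the log2 scale (SE 0.093, adjusted p = 9.3e-05).

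MAP kinases phosphorylate JUN, ATF2 and FOS proteins and drive their transcription. Of 17 listed 15 were tested, 7 rose and 3 fell (66.7% called against 48.4% of all tested genes, median 0.08). MAP2K4, a kinase that activates JNK and p38, rose by 0.38 on the log2 scale (SE 0.052), with a 7mer-A1 in its 3′ UTR, and MAPK9 (JNK2) by 0.27 (SE 0.052). MAPK14 (p38 alpha), with an 8mer, fell by 0.26 (SE 0.057) and RPS6KA3 (RSK2) by 0.14 (SE 0.045). Of 6 serum response and ternary complex factors, which turn on FOS, 1 was called (16.7% against the same 48.4%), the SRF coactivator MRTFB at -0.37 (SE 0.060), whose 3′ UTR holds an 8mer. These are RNA levels, and phosphorylation was not measured.

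Among 8 proteins that bind AU-rich elements 1 rose and 4 fell (62.5% called against 48.4% of all tested genes, median -0.07). ZFP36 (tristetraprolin), which promotes decay of such messages and is itself an early response gene, rose by 0.59 (SE 0.050). ZFP36L2 fell by 0.24 (SE 0.049) and TIA1, with an 8mer, by 0.23 (SE 0.052). Of 11 genes for AP-1 turnover and cofactors 3 rose and 1 fell (median 0.02), and the 36.4% called was below the 48.4% of all tested genes. The ubiquitin ligase components FBXW7 and COP1, both known to target JUN protein, rose by 0.64 (SE 0.088) and 0.41 (SE 0.065), while MEN1, a partner of JUND, fell by 0.17 (SE 0.057).

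Of 17 textbook AP-1 targets 12 were tested, 9 rose, 2 fell and 1 was not called, with a median of 0.58, against 24.9% higher and a median of -0.0045 over all tested genes. MMP9, among the 9, passed the minimum only through its miR-19a libraries (0.76 ± 0.157 FPKM in miR-NC and 1.80 ± 0.216 in miR-19a), and without it 8 of 11 rose, with a median of 0.44. IL11 rose by 2.07 (SE 0.050) and SPP1 (osteopontin) by 1.24 (SE 0.041) on the log2 scale, whereas the adhesion receptor CD44 fell by 0.22 (SE 0.037) and CCND1 by 0.16 (SE 0.037). MMP1, MMP3, MMP10, MMP13 and IVL had at most 8 counts in any library. The list was drawn up with earlier results of these data known, several of its genes answer to other factors as well, and AP-1 binding was not measured.

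**Figure D5:**
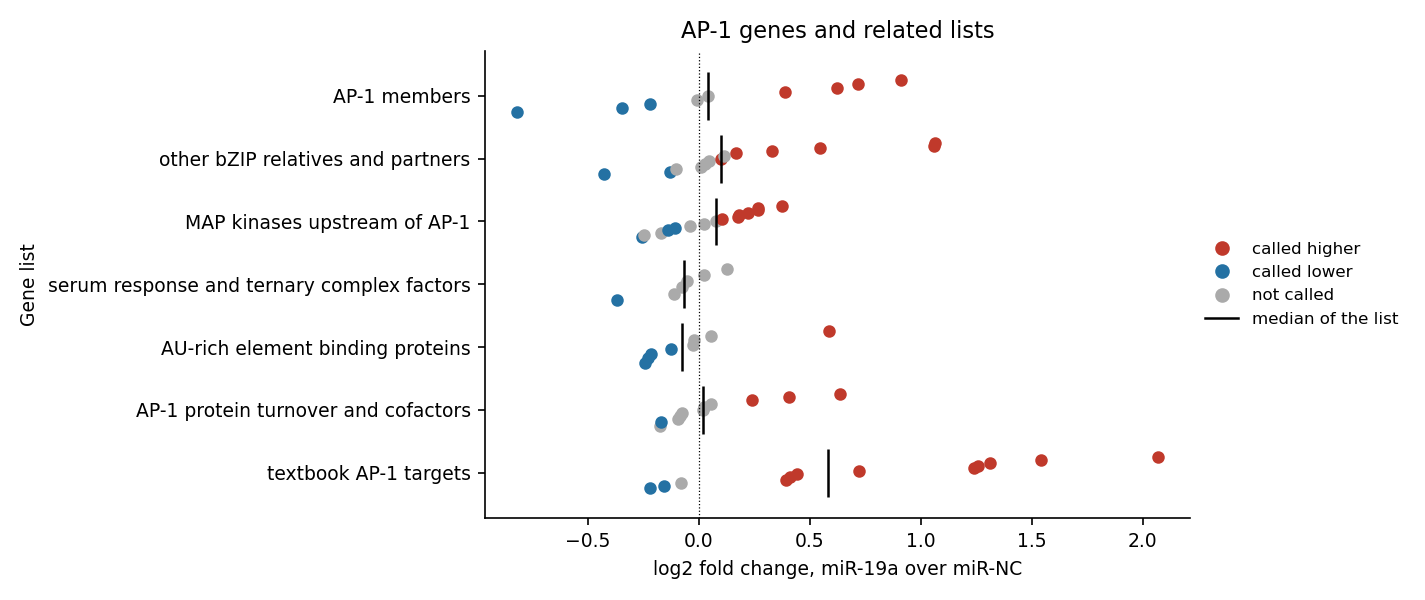
Log2 fold change (horizontal axis, miR-19a over miR-NC) of each tested gene of the AP-1 subunits and of 6 related lists; red points were called higher, blue lower and grey not called, and the black line is the list's median. The medians lie between -0.07 and 0.10 except for the textbook AP-1 targets at 0.58. Without MMP9, which passed the minimum only through its miR-19a libraries, the median of the targets was 0.44. The lists were drawn up with earlier results of these data known.

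The genes whose log2 CPM followed FOSL2 most closely over the 6 libraries were FBXO31 (Pearson r = 0.994) and ZNF652 (0.992). Neither was called, at log2 fold changes of -0.04 and -0.03. For JUNB they were TUBB6 (0.9995) and IER5 (0.998), which rose by 0.45 and 0.22 on the log2 scale. An r above 0.95 was reached by 1183 genes for JUNB and 11 for FOSL2, all over the same 6 libraries. JUNB differed between the groups, so other genes that differ between them can reach a high r with it. Shared regulation was not tested.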

How the data were processed

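Libraries of poly(A) RNA from 6 A549 samples were read from both ends over 150 nt, per the labels' protocols. The submitters' processing notes name bcl2fastq 2.17.1.14. Not given in the sources used here were aligner, counting tool, strand setting, annotation and build. Counts per gene, not normalized, and FPKM were deposited side by side, named per the file headers. For each AP-1 gene, an implied length was taken from its counts, FPKM and library totals, as the mean over the 6 libraries.

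Gene symbols for 51996 identifiers came from a table of names and for 342 from GENCODE v29, and 5567 had none. The members and lists were chosen with earlier results of these data known. Named genes are the members, from each other list up to 2 risers and 2 fallers of smallest adjusted p, and the 2 genes most like the most abundant FOS and JUN member.

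The 12452 genes averaging 1 FPKM or more were tested with edgeR 4.0.16 (R 4.3.3) on counts, with TMM factors and library totals over all genes. SE was derived from the F statistic and the log2 fold change, and 95% intervals from its degrees of freedom. Alternatives were 3 gene filters, median-of-ratios factors, library totals alone, DESeq2 1.42.0, limma 3.58.1 on log2(FPKM + 1) and log2(FPKM + 0.1), a replicate block and each library left out. The transcript length was an alternative chosen after seeing the data. The fit was tested on simulated counts. Sites were searched in GENCODE v29 3′ UTRs (GRCh38). Python 3.11.15, pandas 2.3.3 and matplotlib 3.10.9 were used. Intervals cover the spread between libraries.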

Additional observations from a re-analysis of the deposited data

How the results depend on the processing

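All 7 called members kept their direction under each of the 15 alternatives in which they were tested, and of 132 member and alternative pairs 131 stayed on the same side of the threshold. The exception was ATF2 without miR-NC replicate 2 (-0.16, adjusted p = 0.0739). FOSL1 ranged from -0.84 to -0.79, JUNB from 0.68 to 0.75, JUN from 0.58 to 0.68, BATF3 from 0.31 to 0.50, MAFF from -0.38 to -0.29 and FOS from 0.50 to 0.98, its lowest value on log2(FPKM + 1). FOSL2 (-0.04 to 0.03) and JUND (-0.02 to 0.10) crossed 0 and were called under none of them. With a minimum of 5 FPKM only 6 members were tested and 4 called, because FOS, BATF3 and MAFF lay under it. With each library left out in turn, 6 to 7 members and 5325 to 5784 genes were called, against 7 and 6023. With DESeq2 7 members and 5186 genes were called, and with filterByExpr 8 members, FOSB included, and 6620 genes.

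No effect shared by libraries of the same replicate number was seen. Their deviations from the group means correlated at 0.0085, 0.0005 and -0.031 over genes, and those of unlike numbers at -0.0281 to 0.0255. The labels do not say whether a number marks a shared culture or day. With the replicate block 7 members and 5986 genes were called. Depth limits FOSB, at 13 to 35 counts per library, and FOS, at 42 to 100.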

Other observations

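Several relatives of AP-1 lay under the expression minimum, and these low genes were chosen after their values were seen. CREB5, which binds cAMP response elements and pairs with JUN, had 2.32 ± 0.225 CPM in miR-NC and 4.64 ± 0.470 in miR-19a (SD, n = 3). BACH2, a repressor that pairs with small MAF proteins, had 0.367 ± 0.155 and 0.934 ± 0.115 CPM. They were not tested in the main comparison.

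The gene length implied by the deposited counts and FPKM was 3234 nt for FOS, whose GENCODE v29 exons cover 3238 nt, although the transcript with the longest coding sequence has 2158 nt. For FOSL1 and FOSL2 the implied lengths, 1887 and 7157 nt, equal the covered exon length. For MAFF the implied length was 2976 nt against 5615 nt. Levels compared between genes rest on these lengths, whereas changes between groups do not.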
